A study of Gossypium hirsutum with 6 samples.

Results

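The genes described here are MCM2 (Gh_A03G1940) and MCM6 (Gh_A03G0403), 2 of the 65894 genes in the deposited table, both placed by their IDs on chromosome A03 of upland cotton (*Gossypium hirsutum*). They were taken from a list of 20 DNA replication genes that had been selected on the same libraries as higher in the mutant by at least 2-fold. The difference between lines is therefore a description of how the genes were chosen, and it was not tested. Ovules were dissected from field-grown plants of Xu142, a cultivar that bears fiber and is labelled wild type, and of *Xu142fl*, its fiberless mutant. In each library the ovules of -3 and -1 days post anthesis (DPA) were mixed, and each line had 3 libraries. Neither line had received a treatment. The sources state neither how many plants entered a library nor how much of it each stage made up. The libraries hold whole ovules, so a difference in the number of dividing cells and a difference in RNA per cell cannot be told apart.

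MCM2 and MCM6 are subunits of the MCM2-7 complex, the ring of related ATPases that unwinds DNA ahead of the replication fork in eukaryotes. CDC6 helps the origin recognition complex to load the ring on origins before S phase. CDC45 and the GINS complex then join it to form the active helicase. In plants as in animals these genes are known to be expressed mainly in dividing cells, and ovules before anthesis contain many of these. The ring holds each subunit once, which makes the ratio of subunit transcripts a natural quantity to read from the same library.

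Expression was given as FPKM, fragments normalized for the length of the transcript and the mapped reads of the library, so levels of different genes can be compared per length. The table holds no read counts, and the depth behind a value is unknown. Library totals ran from 804997 to 844877 FPKM and library medians from 3.38 to 4.01 FPKM. In a principal component analysis the first component (51.1% of the variance) separated the lines, while the second (23.4%) placed 2 libraries, Xu142 replicate 2 and *Xu142fl* replicate 1, away from the other 4. As a check of the labels, MML3 of D12 (Gh_D12G1628), a MYB gene of fiber-forming epidermal cells, was at 51.83 to 61.49 FPKM in Xu142 and 0.18 to 0.37 FPKM in *Xu142fl*. MML3 of A12 (Gh_A12G1503) was at 35.25 to 44.37 and 6.96 to 8.34 FPKM.

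In the order of the replicates, MCM6 was at 49.98, 49.07 and 54.79 FPKM in the Xu142 libraries and at 95.33, 108.26 and 112.55 FPKM in the *Xu142fl* libraries. The lines did not overlap, and the lowest *Xu142fl* library was 1.74 times the highest Xu142 library. The means were 51.3 ± 3.07 FPKM in Xu142 and 105.4 ± 8.96 FPKM in *Xu142fl* (SD, n = 3), a ratio of 2.06. On the scale of log2(FPKM + 0.1) the difference was 1.04 (standard error 0.09).

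MCM2 was at 15.61, 14.75 and 15.13 FPKM in Xu142 and at 28.7, 31.33 and 30.94 FPKM in *Xu142fl*. Here too every mutant library lay above every wild type library, by at least 1.84 times. The means were 15.2 ± 0.431 and 30.3 ± 1.42 FPKM (SD, n = 3), a ratio of 2.0, and the log2 difference was 0.99 (standard error 0.08). Of the 20 listed genes MCM2 had the lowest ratio of means and stood just at the 2-fold limit of the list. Next above it were CDC6B (Gh_D10G0376, 2.03) and POLE2 (Gh_D05G0040, 2.04). For comparison, 15.6% of the 56395 tested genes (mean FPKM of 0.1 or more) were higher in *Xu142fl* with no overlap. Since the choice of both genes used this contrast, nothing is read from that share.

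**Figure D1:**
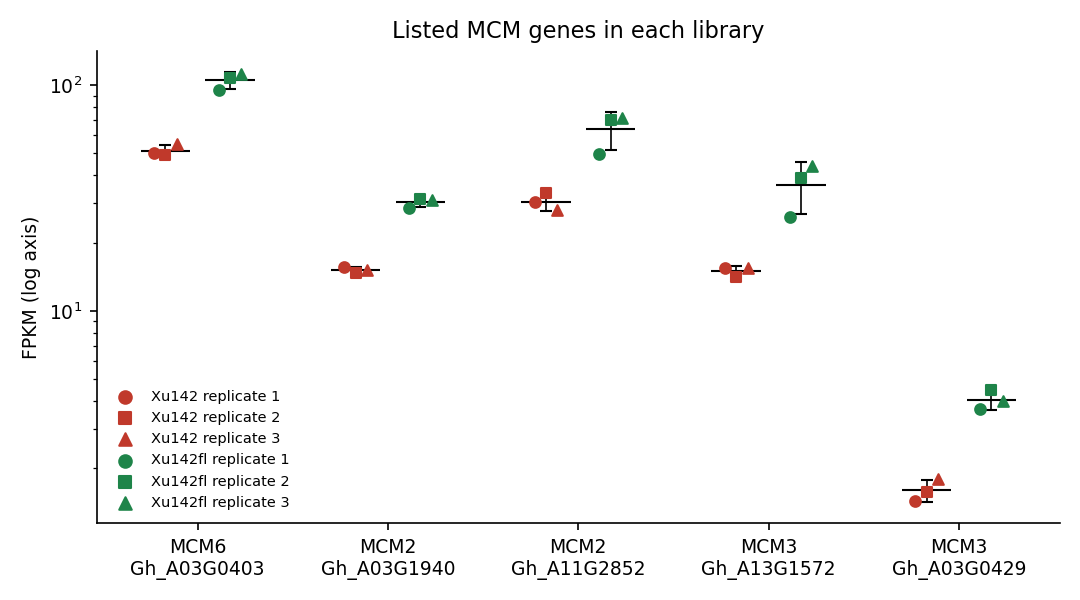
FPKM (log axis) of the 5 listed MCM genes in each library, Xu142 in red and *Xu142fl* in green, with the mean as a black line and the SD of 3 libraries as a bar. MCM6 rises from 51.3 to 105.4 FPKM on average and MCM2 of A03 from 15.2 to 30.3 FPKM, and the points of MCM2 of A03 lie closest together.

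Both genes were abundant transcripts in these ovules. In Xu142, 3.95 to 4.60% of all genes in the table had a higher FPKM than MCM6, and in *Xu142fl* 1.44 to 1.71%. For MCM2 the shares were 19.1 to 19.7% and 8.37 to 9.16%. Within the replication list no other gene had a mean above MCM6 in either line. CDC45 (Gh_D03G1136) came next with 40.7 ± 2.03 FPKM in Xu142 and 88.8 ± 12.5 FPKM in *Xu142fl*. In *Xu142fl* the libraries of MCM6 and CDC45 overlapped, since CDC45 reached 99 FPKM and MCM6 began at 95.33 FPKM. MCM2 of A03 and MCM3 of A13 (Gh_A13G1572, 15.0 ± 0.742 FPKM) differed in Xu142 by less than their SD. In *Xu142fl* MCM3 of A13 was at 25.96 to 43.99 FPKM, a range that enclosed all 3 values of MCM2 of A03.

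The transcripts of MCM6 and MCM2 kept nearly the same proportion in both lines. The ratio of MCM6 to MCM2 FPKM in replicates 1 to 3 was 3.20, 3.33 and 3.62 for Xu142 and 3.32, 3.46 and 3.64 for *Xu142fl*. The ranges of the lines overlapped. The mean ratio was 3.38 ± 0.215 in Xu142 and 3.47 ± 0.159 in *Xu142fl* (SD, n = 3). On the scale of log2(FPKM + 0.1) the ratio was higher in *Xu142fl* by 0.04, which is less than its SD within lines of 0.08. Leaving out 1 library moved this difference to between 0.0027 and 0.091, and leaving out both libraries that stood apart gave 0.06. A factor applied to a whole library cancels in this ratio, so scaling between libraries bears on it only through the pseudocount. Since both genes had been selected at 2-fold or more and both lay near that limit, a ratio that hardly differs between lines follows in part from the choice.

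**Figure D2:**
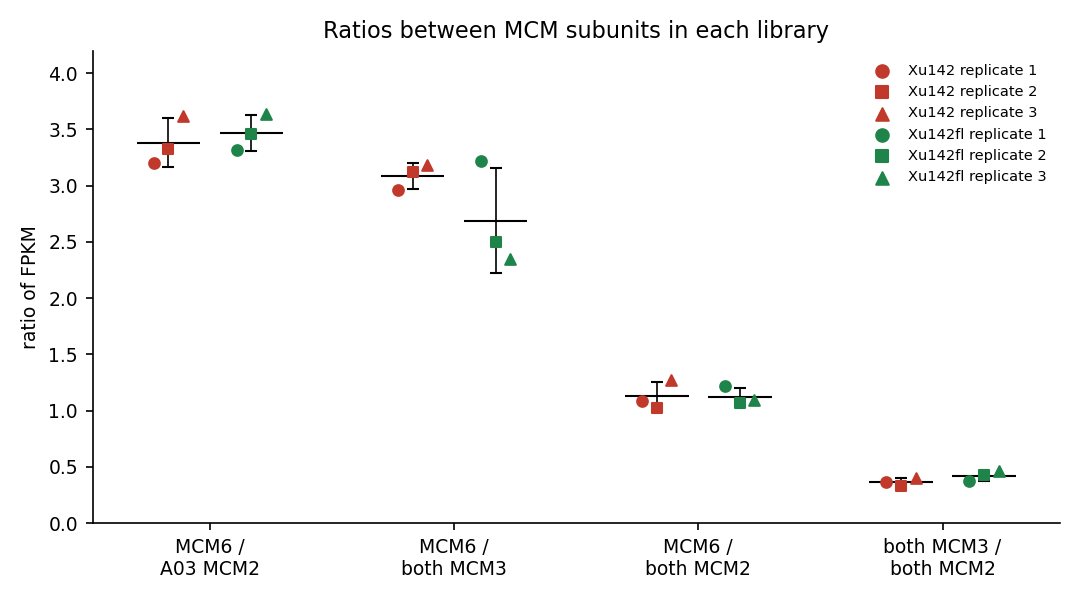
Ratios of FPKM between MCM subunits in each library, on a linear axis from 0, with means (black lines) and SD bars of 3 libraries. The ratio of MCM6 to MCM2 of A03 lies between 3.20 and 3.64 in all 6 libraries, and the lines overlap in each of the 4 ratios.

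A second MCM2 gene was on the list, on A11 (Gh_A11G2852). It was at 30.47, 33.21 and 27.86 FPKM in Xu142 and at 49.73, 70.22 and 71.86 FPKM in *Xu142fl*. It thus had the higher level of the listed MCM2 genes in every library, and its values in *Xu142fl* spread more widely than those of the A03 gene. The A03 gene made up 33.9, 30.8 and 35.2% of the sum of both MCM2 genes in Xu142 and 36.6, 30.9 and 30.1% in *Xu142fl*. The means were 33.3 ± 2.28% and 32.5 ± 3.55% (SD, n = 3), a difference smaller than either SD. The highest share was that of *Xu142fl* replicate 1, 1 of the libraries that stood apart. The authors estimated expression with RSEM, which divides reads among genes that they fit equally well. How alike the listed MCM2 genes are in sequence was not examined, so whether shared reads affect this split is unknown.

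With both MCM2 genes summed, MCM2 reached nearly the level of MCM6. The sum was 46.08, 47.96 and 42.99 FPKM in Xu142 and 78.43, 101.55 and 102.8 FPKM in *Xu142fl*. The ratio of MCM6 to this sum was 1.08, 1.02 and 1.27 in Xu142 and 1.22, 1.07 and 1.09 in *Xu142fl*. Its mean was 1.13 ± 0.131 and 1.13 ± 0.0793 (SD, n = 3). Copies of these genes that are not on the list were not analysed here, so these sums need not hold all transcripts of a subunit.

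MCM3, a further subunit of the ring, had the lowest FPKM of the 3 listed subunits when the listed genes of each were summed. All 5 listed MCM genes have IDs of A chromosomes, so any copy on a D chromosome is outside this ranking and the ratios. MCM3 of A03 (Gh_A03G0429) was at 1.44, 1.57 and 1.79 FPKM in Xu142 and at 3.65, 4.46 and 4 FPKM in *Xu142fl*. It lies 26 ID numbers above MCM6, and IDs of this annotation run along the chromosome. Together with MCM3 of A13 it summed to 16.88, 15.71 and 17.2 FPKM in Xu142 and 29.61, 43.25 and 47.99 FPKM in *Xu142fl*. MCM6 was 2.96, 3.12 and 3.19 times this sum in Xu142 and 3.22, 2.50 and 2.35 times in *Xu142fl*. The value of *Xu142fl* replicate 1 lay above all Xu142 values and the other *Xu142fl* values lay below them, so this ratio was not as steady as that of MCM6 to MCM2. Of the FPKM of all 5 MCM genes, MCM6 held 43.5 to 47.7% in Xu142 and 42.7 to 46.9% in *Xu142fl*, and MCM2 of A03 held 13.1 to 13.8% and 11.7 to 14.1%.

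MCM2 of A03 varied little between libraries of a line. Its SD within lines was 0.06 on the log2 scale, below that of each of the 18 other listed genes, whose SD ran from 0.07 to 0.43 with a median of 0.21. Among 45565 other genes whose mean FPKM was 1 or more, 3.47% had a smaller SD. Among the 6744 of these within a log2 distance of 0.5 from its mean level, 6.17% did. The SD of MCM6 was 0.11. Of the 45565 other genes 18.9% varied less, and of the 1654 genes of similar level 32.2% did. The lines themselves played no part in this measure, since the mean of each line was removed.

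As deposited, both MCM2 and MCM6 were lowest in replicate 2 among the Xu142 libraries and in replicate 1 among the *Xu142fl* libraries. These are the libraries that the second principal component set apart, and their medians (3.52 and 3.38 FPKM) were the lowest of their lines. Of the 18 other listed genes, 15 were also lowest in Xu142 replicate 2 and 16 in *Xu142fl* replicate 1, where 48.6% and 47.6% of all tested genes were. The counts were repeated with each library divided by its median-ratio factor, a step chosen after the data had been seen. MCM2 was then at 15.24, 15.16 and 14.83 in Xu142, lowest in replicate 3, and MCM6 at 48.8, 50.4 and 53.7, lowest in replicate 1. In *Xu142fl* both genes were still lowest in replicate 1, MCM2 with 29.96, 30.62 and 30.23 and MCM6 with 99.5, 105.8 and 110.0. Of the 18 other genes, 11 were lowest in Xu142 replicate 2 and 14 in *Xu142fl* replicate 1 after scaling, against 40.7% and 39.8% of all tested genes. After scaling, Xu142 replicate 2 was thus the lowest library for neither MCM gene. The part of the second component in the spread was not tested. Without both libraries the log2 difference between lines was 1.01 for MCM2 and 1.08 for MCM6.

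The steadiness of a ratio was measured as the SD within lines of the log2 ratio of a gene to each MCM gene (4 degrees of freedom). For MCM2 and MCM6 it was 0.08. Over the 45565 genes the median SD was 0.21 for ratios to MCM6 and 0.20 for ratios to MCM2. A ratio as steady as this or steadier was found for 5.18% of the genes with MCM6 and for 8.01% with MCM2. These shares, and those given below, are over genes not matched in level to MCM2 and MCM6. For the SD of single genes, matching the level raised the share from 3.47 to 6.17% for MCM2. For MCM6 it rose from 18.9 to 32.2%. The ratio shares were not repeated with such matching. The SD of 0.08 lay between the SD of MCM2 alone (0.06) and that of MCM6 alone (0.11). Apart from MCM2, the listed genes closest to MCM6 by this measure were CDC45 (0.06) and CDC6B of D10 (Gh_D10G0376, 0.08), which act with the ring. The next were RPA2A of D03 (Gh_D03G1115, 0.09) and PCNA of A10 (0.09), which act behind the helicase. The other listed genes of the ring were less close to MCM6. MCM3 of A03 had 0.10, with 9.90% of the genes as steady or steadier, MCM2 of A11 had 0.19 (43.1%) and MCM3 of A13 had 0.20 (44.9%). With MCM2 of A03 they had 0.13 (27.8%), 0.19 (48.2%) and 0.24 (60.4%). Those closest to MCM2 were PCNA of A10 (Gh_A10G0368, 0.02), the sliding clamp of DNA polymerases, and RPA3B of A09 (Gh_A09G1639, 0.07), a subunit of the protein that coats single-stranded DNA. GINS2 (Gh_A05G4010), whose product joins the active helicase, had 0.37 with MCM6 and 0.38 with MCM2. Of the 19 listed genes compared with each member, 8 were in the steadiest 10% of all genes for MCM6 and 3 for MCM2. All of these ratios share 6 libraries, and the measure has no test here.

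**Figure D3:**
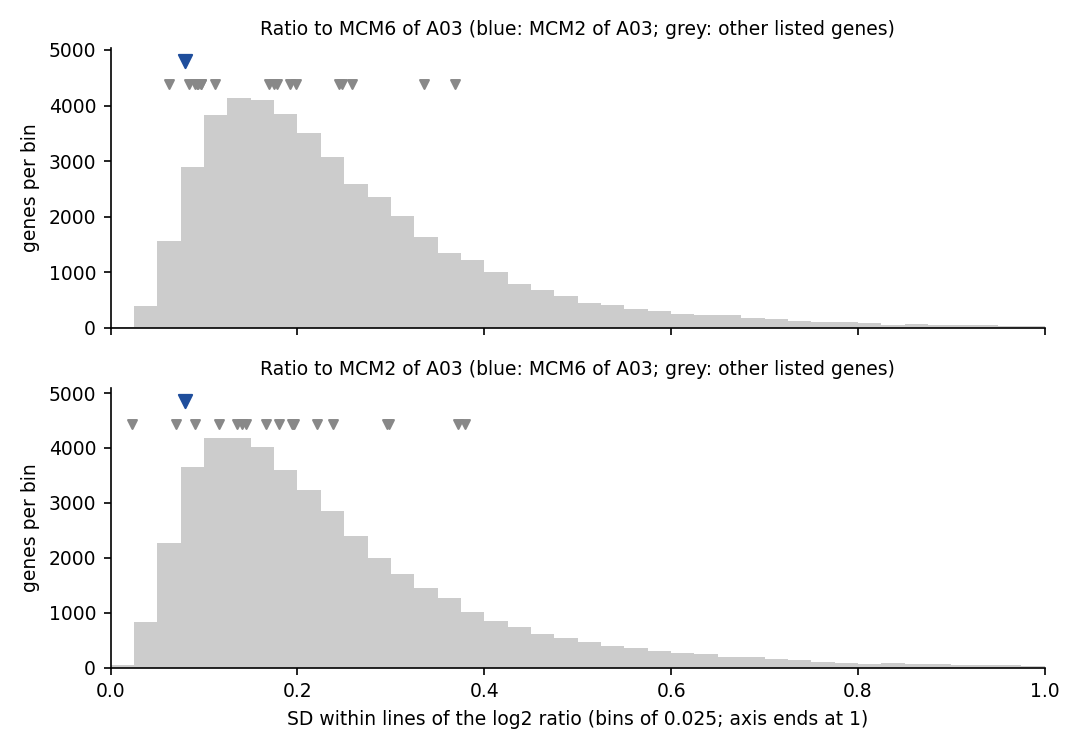
Number of genes by the SD within lines of their log2 ratio to MCM6 (upper panel) and to MCM2 of A03 (lower panel), for 45565 genes whose mean FPKM was 1 or more. The blue marker is the ratio of MCM6 and MCM2 to each other (0.08), left of the medians of 0.21 and 0.20, and the grey markers are the 18 other listed genes, which run from 0.06 to 0.37 for MCM6 and from 0.02 to 0.38 for MCM2.

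With the difference between lines kept in, the gene whose pattern over the 6 libraries was most like MCM2 was Gh_A13G1937. Its FPKM was 2.66, 2.53 and 2.63 in Xu142 and 4.83, 5.43 and 5.21 in *Xu142fl*, and its log2 ratio to MCM2 had an SD of 0.03. PCNA of A10 was the next (0.04). The gene most like MCM6 was Gh_A05G3224, at 4.88, 5.06 and 5.55 FPKM in Xu142 and 9.89, 11.83 and 11.74 FPKM in *Xu142fl* (SD of the log2 ratio 0.05). The deposited table gives neither gene a name. MCM2 and MCM6 stood in place 14 on the other's list, out of 45565 genes. This place keeps the line difference on which both genes were chosen. With the line means removed, MCM2 stood in place 2359 by its ratio to MCM6, and MCM6 in place 3649 by its ratio to MCM2.

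The other 18 genes of the list were, like MCM2 and MCM6, chosen on these libraries, and are described for comparison. All 18 were higher in *Xu142fl* with no overlap, with log2 differences of 1.0 to 2.22 and a median of 1.14, against a median of 0.01 over the 56395 tested genes. With limits of 0.001 on the limma adjusted p and 2-fold on the change, 2 of the 18 were called, where 0.195% of all tested genes were called higher. With 0.05 in place of 0.001 all 18 were called, against 1.67% of all tested genes. Since the list was picked from this contrast, these counts are not evidence for its direction. The 2 called genes were PCNA of A10 and DNA2 (Gh_A11G1285), which trims flaps of the lagging strand. Neither was called when any 1 library was left out, and without *Xu142fl* replicate 1 the 3 genes called were CDC45, MCM3 of A13 and PCNA of D11 (Gh_D11G3224).

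By role, the genes that load or complete the helicase had log2 differences near those of MCM2 and MCM6, with standard errors of 0.12 to 0.29. CDC6B had log2 differences of 1.01 (Gh_D10G0376) and 1.15 (Gh_D13G1931), CDC45 had 1.12 and GINS2 had 1.12. Of the remaining genes of the ring itself, the MCM3 genes had 1.28 (A03) and 1.23 (A13), and MCM2 of A11 had 1.05. Their standard errors were 0.16 to 0.19. The roles were not tested against each other, and the 2-fold limit of the list kept all values from lying much lower. Genes that act behind the helicase covered the same range with few exceptions. POLE2, the second subunit of DNA polymerase epsilon, had 1.30 (Gh_A03G0737) and 1.02 (Gh_D05G0040). The single-strand binding genes RPA2A (Gh_D02G1057 and Gh_D03G1115) and RPA3B (Gh_A05G2910 and Gh_A09G1639) ran from 1.13 to 1.35. PCNA had 1.05 (A10) and 1.0 (D11), and the histone chaperone subunit SSRP1 (Gh_D10G2252) had 1.01. Only RFC3 (Gh_A13G1407, 2.18), a subunit of the clamp loader, and DNA2 (2.22) exceeded these values. All of the 18 had a larger log2 difference than MCM2, and 14 a larger one than MCM6. The list was cut at 2-fold and both genes lay near that limit, so these counts follow largely from the choice. For 6 of the 18 the excess over MCM2 was smaller than both their own standard error and that of MCM2, so the order among these genes is not resolved. They were both PCNA genes, SSRP1, CDC6B of D10, POLE2 of D05 and MCM2 of A11. GINS2, both RPA2A genes and RPA3B of A05 exceeded MCM2 by less than their own standard errors (0.17 to 0.30). Their order relative to MCM2 is not resolved either, and that of the remaining genes was not tested.

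**Figure D4:**
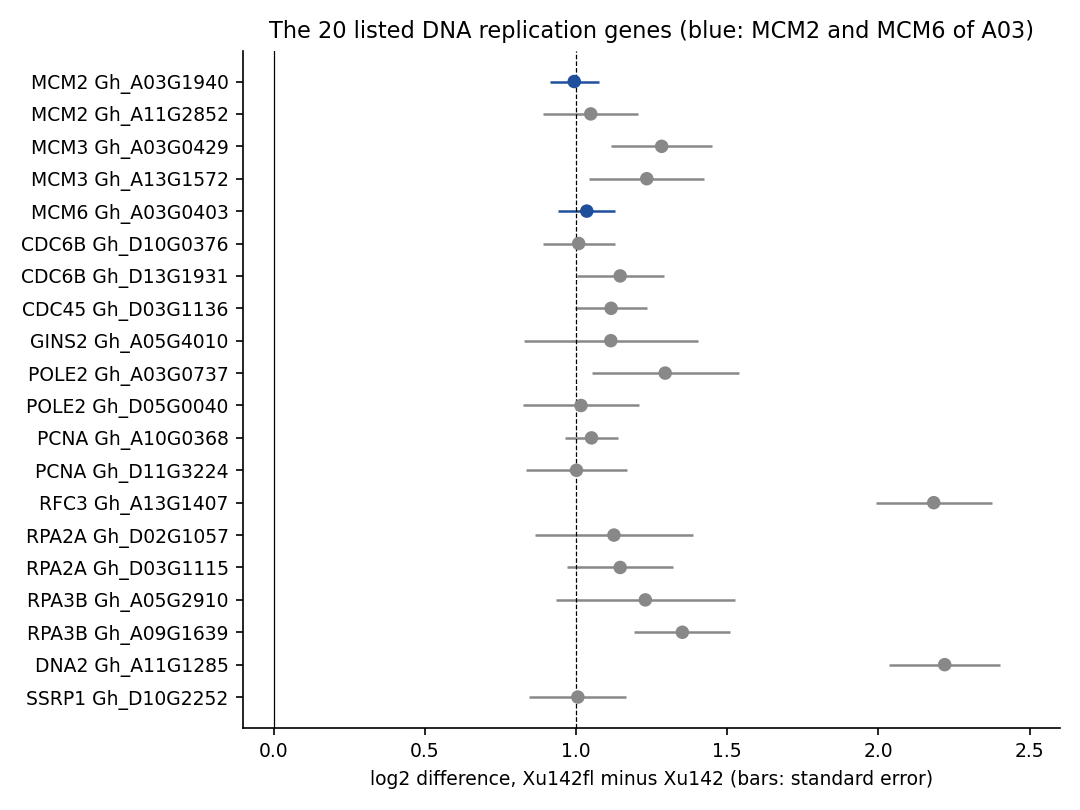
Log2 difference between lines (*Xu142fl* minus Xu142, on log2(FPKM + 0.1)) of the 20 listed DNA replication genes, ordered by role, with standard errors from limma. The dashed line marks 2-fold, MCM2 (0.99) and MCM6 (1.04) of A03 are in blue, and RFC3 (2.18) and DNA2 (2.22) lie to the right of the rest.

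Within each library, MCM2 and MCM6 were also set against the mean log2 level of the other 18 genes. MCM6 stood above that mean by 3.36, 3.56 and 3.45 in Xu142 and by 3.36, 3.15 and 3.21 in *Xu142fl*. For MCM2 the distances were 1.69, 1.84 and 1.60 in Xu142 and 1.63, 1.37 and 1.36 in *Xu142fl*. The distance was smaller in *Xu142fl* by 0.22 for MCM6 and by 0.26 for MCM2, as the other genes had on average the larger fold changes. All had been selected at 2-fold or more and MCM2 and MCM6 lay near that limit, so this follows in part from the choice. RFC3 and DNA2, with log2 differences of 2.18 and 2.22, also weigh on the mean. The mean of the 18 genes was higher in *Xu142fl* by 1.25, while the median of their log2 differences was 1.14. *Xu142fl* replicate 1 lay within the Xu142 range for MCM2 and just below it for MCM6.

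The genes beside MCM2 and MCM6 on A03 were not used to choose them and were tested in the fit over all genes. For each, the 10 nearest tested genes of lower and of higher ID number were taken, leaving out listed genes. None of the 40 neighbours was called by limma in either direction with a change of 2-fold or more, whether the adjusted p was limited to 0.001 or to 0.05. At 0.05, 1.67% of all tested genes were called higher and 4.47% lower. At any fold, 5 of the 40 had an adjusted p within 0.05, against 13.9% of all tested genes, 1 of them higher and 4 lower in *Xu142fl*. At an unadjusted p under 0.05 there were 16 of 40, against 29.9% of all tested genes.

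The median log2 difference was 0.18 for the 20 neighbours of MCM6 and 0.13 for the 20 of MCM2, where all tested genes had 0.01. The neighbours of MCM6 ran from -0.68 to 1.0, and 15 of 20 were above 0. Those of MCM2 ran from -0.99 to 1.02, and 12 of 20 were above 0. Together 27 of 40 were above 0, against 50.8% of all tested genes, and this share was not tested. Of the 40, 10 were higher in *Xu142fl* with no overlap and 6 were lower with no overlap, where 15.6% and 19.5% of all tested genes were. The tested gene that follows MCM6 in the order of IDs went from a mean of 25.9 to 50.7 FPKM, a log2 difference of 0.96 (limma adjusted p = 0.070), a gene singled out after its values were seen. The tested gene just before MCM6 had a log2 difference of 0.12 (limma adjusted p = 0.42). The genes next to MCM2 had -0.91 before it (limma adjusted p = 0.037) and 1.02 after it (limma adjusted p = 0.21), the latter at a mean of 0.230 and 0.573 FPKM.

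**Figure D5:**
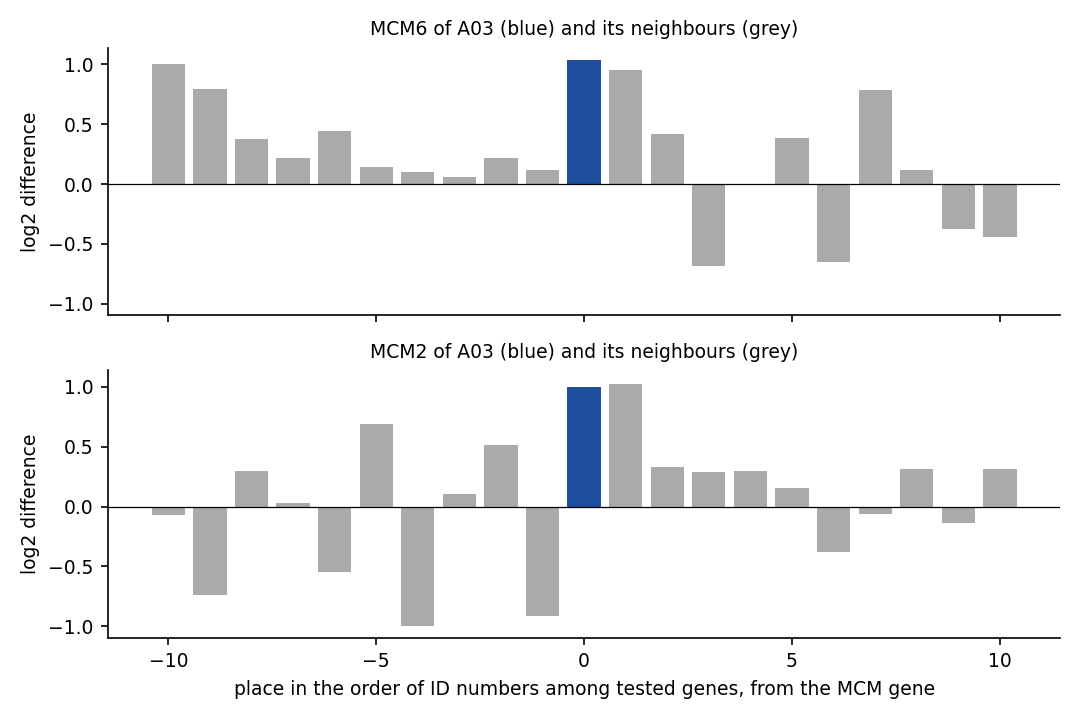
Log2 difference between lines of the 10 tested genes on either side of MCM6 (upper panel) and MCM2 (lower panel) in the order of ID numbers on A03, with the MCM gene in blue at place 0. The grey bars run from -0.68 to 1.0 around MCM6 and from -0.99 to 1.02 around MCM2.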

How the data were processed

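Per the paper's methods, the authors used Bowtie2 (known genes), HISAT2 and StringTie (new transcripts) on filtered reads with the TM-1 genome, and quantified genes by RSEM. The authors deposited FPKM with no stated scaling between libraries, so the study's DEGseq test on reads was not run. All 6 columns were matched to libraries by name, and no column was left over. The 56395 genes whose mean was 0.1 FPKM or more were analysed as log2(FPKM + 0.1) with limma 3.58.1 (R 4.3.3, intensity trend, Benjamini-Hochberg adjustment over all tested genes). The code was run on simulated data with the same independent noise in every gene and changes larger than 2-fold. That check does not bear on how stable the calls are in these libraries. Calls required a change of 2-fold or more and an adjusted p within 0.001, with 0.05 as a second limit. The 3 libraries of a line are called biological replicates without naming separate plants, so p-values measure the spread between libraries, which may be partly technical. Genes named were the listed replication genes, MML3, and the gene most like each member. The members and lists were chosen with earlier results of these data known. The RefSeq table of Gossypium_hirsutum_v2.1 matched 0 IDs, so no coordinates or sequences are given.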

Additional observations from a re-analysis of the deposited data

How the results depend on the processing

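The alternatives were other pseudocounts, filters, scalings, limma options, annotated genes alone, the replicate block and libraries left out. Filters, limma options, annotated genes alone and the replicate block cannot alter the log2 differences of MCM2 and MCM6, their ratio or its SD. The A03 share of MCM2 was taken from FPKM as deposited, so only leaving out libraries could alter it. Where a change was possible, these values moved by less than the spread between replicates (the SD by less than 1.5 times). With 1 library left out, the difference ran from 0.97 to 1.03 for MCM2 and from 0.99 to 1.11 for MCM6, that of the log2 ratio from 0.0027 to 0.091, its SD from 0.058 to 0.091 and the A03 share from 32.2 to 33.5%. Counts of calls depended on the setting. The 423 genes called in all became 3463 at an adjusted p of 0.05, 37 to 273 with 1 library left out and 151 without both libraries that stood apart. Of the other listed genes, 2 were called, against 18 at 0.05, 0 with a pseudocount of 0.01, with no filter or without both libraries, 1 with a pseudocount of 1 or without trend, and 0 to 3 with 1 library left out. With line means removed, same-numbered libraries had r across genes of -0.25, -0.23 and 0.14 for replicates 1 to 3. Xu142 replicate 2 went best with *Xu142fl* replicate 1 (0.40), and these are the libraries that stood apart. The check gave no clear sign of pairing by number but cannot exclude it, since these libraries weigh heavily on it. With the replicate block, 2 genes in all and 0 of the listed genes were called. The 40 neighbours had 0 calls in every fit. Without read counts, no counting error can be given.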
